A study of Mus musculus with 4 samples.

Results

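The collagen genes, taken as the protein-coding genes of the mm9 annotation whose symbols have the form Col, a type number, the letter a and a chain number, were examined for open chromatin. There were 43 such genes among 22367 protein-coding genes on assembled chromosomes, and all 43 had at least 1 open site. A site was a region covered by overlapping peaks of any of the libraries, and it was assigned to a collagen gene when a peak summit lay in the gene body or within 50 kb of any transcription start site (TSS). This gave 666 collagen sites of 100904 sites in all, of which 83288 lay near a protein-coding gene by the same rule. Of the 666 sites, 371 lay in introns, 196 were intergenic, 75 were at promoters and 24 were in exons, by the position of the summit of the site. In 537 of them (80.6%) the summit was in a collagen gene or a collagen TSS was the nearest, and 44 were assigned to more than 1 collagen gene, so neighbouring genes share some of the evidence.

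The libraries came from ATAC-seq, in which Tn5 transposase tags accessible DNA, of im-scWAT cells. These cells are cultures of the stromal vascular fraction of mouse subcutaneous white adipose tissue, immortalized with SV40 large T antigen, and the WT culture (Jmjd1a +/+) and the HY culture (Jmjd1a HY/HY, in which both copies of the H3K9 demethylase JMJD1A carry tyrosine in place of a histidine and lack activity) were each established from mice of that genotype. Nuclei were taken before differentiation (D0) or on day 8 (D8), after confluent cells had received indomethacin, dexamethasone, 3-isobutyl-1-methylxanthine, rosiglitazone, insulin and T3 and then insulin, T3 and rosiglitazone only. There was 1 library for each of the 4 combinations, so no difference below has a replicate check, and each compares libraries rather than conditions.

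Collagens are the main structural proteins of the extracellular matrix, built from 3 alpha chains wound into a triple helix. Fibrillar collagens (types I, II, III, V, XI, XXIV and XXVII) form the fibrils of connective tissue, and FACIT collagens (such as types XII, XIV and XVI) sit on their surface. Type IV forms the sheet-like network of basement membranes, type VI forms beaded microfibrils, and the multiplexins (types XV and XVIII) lie in or next to basement membranes. Fibroblast-like adipose progenitors make abundant fibrillar collagen, and mature adipocytes are each wrapped in a basement membrane.

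The sequences below are 201 bases centred on the summit, on the strand of the gene, from the mm9 genome. They were taken from intergenic and intronic sites in a collagen gene or nearest to a collagen TSS, and are shown because they had the highest pileups among those open at a single stage, because they hold a motif discussed further on, or because the site had the largest lesser gain of both cultures at D8. Capitals mark any match to the 7 motifs searched. The pair of strongest such sites open at D0 only in both cultures were an intergenic site at -2.48 kb of Col1a1 (chr11:94794959-94795159, plus strand) and one at -15.3 kb of Col1a2 (chr6:4439442-4439642, plus strand), the genes of both type I chains. The next pair are the strongest D0-only distal sites with an AP-1 motif, in introns of Col16a1 (chr4:129761874-129762074, plus strand) and Col23a1 (chr11:51340437-51340637, plus strand).
Col1a1, D0 only: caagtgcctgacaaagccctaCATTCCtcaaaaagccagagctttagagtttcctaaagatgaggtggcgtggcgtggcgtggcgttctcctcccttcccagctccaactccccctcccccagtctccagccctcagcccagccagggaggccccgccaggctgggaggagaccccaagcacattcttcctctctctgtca
Col1a2, D0 only: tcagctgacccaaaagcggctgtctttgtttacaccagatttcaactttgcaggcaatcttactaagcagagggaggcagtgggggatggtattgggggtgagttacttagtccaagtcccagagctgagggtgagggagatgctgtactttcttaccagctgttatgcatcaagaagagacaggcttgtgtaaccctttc
Col16a1, D0 only: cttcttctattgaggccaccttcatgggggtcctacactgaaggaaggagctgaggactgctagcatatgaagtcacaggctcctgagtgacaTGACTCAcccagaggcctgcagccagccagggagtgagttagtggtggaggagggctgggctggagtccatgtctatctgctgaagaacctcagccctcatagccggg
Col23a1, D0 only: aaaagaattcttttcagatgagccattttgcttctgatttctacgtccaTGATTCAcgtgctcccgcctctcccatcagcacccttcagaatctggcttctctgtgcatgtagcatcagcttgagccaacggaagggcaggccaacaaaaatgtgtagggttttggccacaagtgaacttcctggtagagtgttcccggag
The strongest such site open at D8 only in both cultures lay at -14.4 kb of Col27a1 (chr4:62860525-62860725, plus strand), and the strongest with an NFI site were at -9.96 kb of Col27a1 (chr4:62864982-62865182, plus strand) and in an intron of Col15a1, 1.59 kb after its TSS (chr4:47222522-47222722, plus strand). The last sequence is the distal site open in all 4 libraries with the largest gain at D8 when ranked by the culture with the lesser gain, in an intron of Col18a1 (chr10:76590807-76591007, minus strand).
Col27a1 far, D8 only: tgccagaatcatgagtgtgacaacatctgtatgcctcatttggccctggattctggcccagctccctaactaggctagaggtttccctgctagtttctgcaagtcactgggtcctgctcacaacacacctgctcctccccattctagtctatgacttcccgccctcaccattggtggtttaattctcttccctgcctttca
Col27a1 near, D8 only: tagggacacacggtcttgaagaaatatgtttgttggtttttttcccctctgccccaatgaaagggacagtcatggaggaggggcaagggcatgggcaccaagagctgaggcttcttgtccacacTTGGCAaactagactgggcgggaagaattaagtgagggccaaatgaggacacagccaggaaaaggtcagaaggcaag
Col15a1, D8 only: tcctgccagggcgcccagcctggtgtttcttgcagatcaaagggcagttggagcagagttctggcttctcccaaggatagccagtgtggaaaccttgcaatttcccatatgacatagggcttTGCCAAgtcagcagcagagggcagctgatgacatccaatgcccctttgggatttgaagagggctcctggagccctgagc
Col18a1, higher at D8: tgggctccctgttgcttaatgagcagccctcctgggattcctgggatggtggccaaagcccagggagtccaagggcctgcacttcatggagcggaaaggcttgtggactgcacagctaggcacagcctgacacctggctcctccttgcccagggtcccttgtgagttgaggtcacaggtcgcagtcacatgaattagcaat

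The libraries held 71523 (WT D0), 41228 (WT D8), 77994 (HY D0) and 48964 (HY D8) peaks. Signal is given as the summit pileup, the number of fragments stacked at the summit, and ratios between libraries were scaled to each library's genome-wide background rate, which was 0.806 of the D0 rate at D8 in WT and 0.698 in HY. Pileup intervals are exact 95% Poisson intervals and shares carry 95% Wilson intervals, and both cover counting error only. A site with no called peak has no pileup in the lists, so "closed" means that no peak was called. The stage labels were checked against promoters of marker genes. Those of Adipoq, Cidec, Fabp4 and Plin1 were open at D8 in both cultures and closed at D0, those of the progenitor markers Cd34, Ly6a and Thy1 were open at D0 and closed at D8, and those of the 4 immune genes examined had no peak in any library. The other adipocyte markers, Pparg, Cebpa and Lipe, were open in all 4 libraries. Of the other progenitor markers, Pdgfrb was open in all 4 libraries (53, 19, 65 and 17 in WT D0, WT D8, HY D0 and HY D8), and Pdgfra and Dlk1 had a promoter summit in WT D0 only. The Pdgfra summit (pileup 50) was not within 1000 bp of its outermost TSS, and HY D0 had 5 sites near Pdgfra against 4 in WT D0. Among 5 beige genes, Ucp1 and Dio2 had no promoter peak, Cidea was open in all but WT D0 and Elovl3 in all 4. Ppargc1a opened at D8 in both cultures (14 and 15) at a TSS other than the outermost, which had no peak within 1000 bp in any library. Among 4 endothelial genes, 3 promoters were open in WT D0 and 2 in HY D0 against 0 and 1 at D8, and their part in the results was not tested. Chromosome Y carried 1 peak in each WT library and 7 and 6 in the HY libraries. Each genotype is a single culture, so culture and allele cannot be told apart.

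Closing was the commonest change at collagen loci. In bulk samples such as these, fewer cells with an open site and less accessibility per cell cannot be told apart. Of 465 collagen sites open in WT D0, 66.2% (61.8 to 70.4) were closed in WT D8, against 56.9% of sites near all protein-coding genes. In HY, 62.0% (57.8 to 66.1) of 527 D0 sites were closed at D8, against 54.1%. Opening was nearer to the background. In WT, 25.6% (20.2 to 31.9) of 211 D8 sites were new since D0 against 24.6% near all genes, and in HY 20.9% (16.4 to 26.4) of 253 against 25.9%. A promoter window held the summit of at least 1 peak of 79 collagen sites, 11.9% against 18.6% of all sites, so promoter and distal sites were compared apart. At promoters, 25.4% (16.3 to 37.3) of WT and 22.1% (13.8 to 33.3) of HY D0 collagen sites closed, against 19.1% and 18.2%. New at D8 there were 5 of 52 sites in WT, 9.62% (4.18 to 20.6) against 5.69%, and 8 of 61 in HY, 13.1% (6.80 to 23.8) against 5.47%. Among distal sites 72.6% (68.1 to 76.8) of WT and 68.0% (63.6 to 72.1) of HY collagen sites closed, against 68.6% and 64.3%, and both intervals included the value for all genes. Of the distal D8 sites near collagens 30.8% (24.2 to 38.4) were new in WT, where the interval included the 35.0% near all genes, and 23.4% in HY, where the upper bound of 29.9% lay below the 35.0% near all genes.

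Sites open at D0 in both cultures and closed at D8 in both made up 29.9% (26.5 to 33.5) of the collagen sites, 199 of 666, against 23.3% of sites near all genes. The reverse pattern, D8 only in both, held for 25 sites, 3.75% (2.56 to 5.48), against 6.13%. Open in all 4 libraries were 143 sites, 21.5% against 26.6%. Among distal sites alone these patterns took 32.5% against 26.6%, 3.58% against 7.05% and, for sites open in all 4 libraries, 16.5% against 16.9%, so the last difference was not seen there. A weak site is lost more easily than a strong one, so the sites open at D0 in both cultures were divided by the lower of their D0 pileups. Below 15, 76.3% (69.5 to 81.9) of 177 collagen sites were closed in both D8 libraries, against 65.9%. From 15 to below 30, the share was 43.2% (34.8 to 52.0) of 125, against 30.3%, and at 30 or more it was 10.4% (5.8 to 18.1) of 96, against 4.06%. At each of these strengths the collagen sites were the more often closed. The order was also seen among distal sites alone, at 77.8%, 46.4% and 15.3% against 68.2%, 36.9% and 8.61%, and the intervals of the middle (37.5 to 55.6) and highest (8.24 to 26.5) strengths came near or included the values for all genes.

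**Figure D1:**
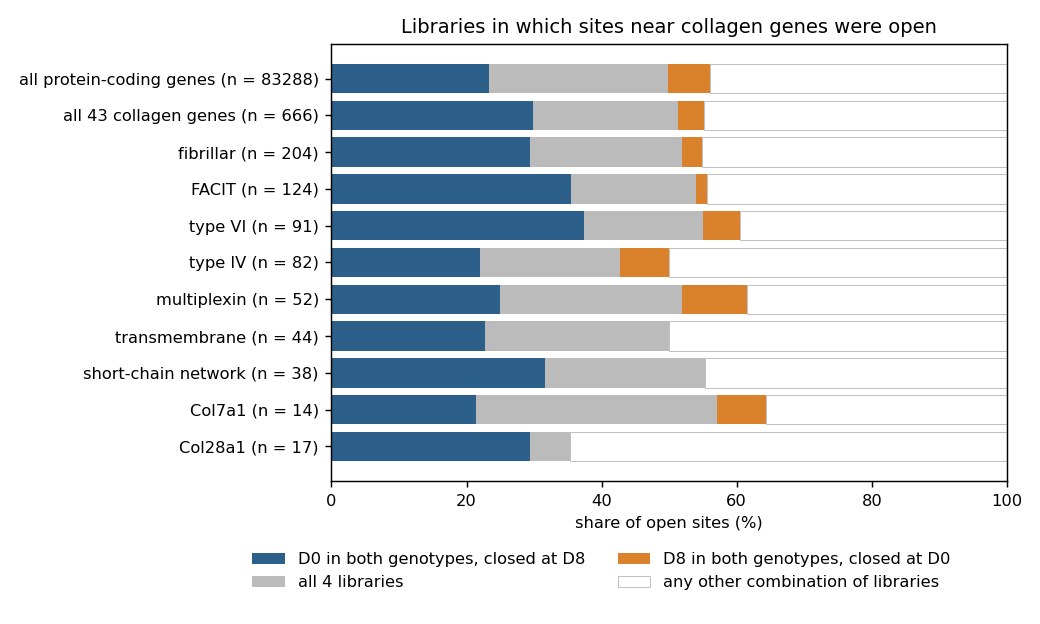
Share of open sites (%) by the libraries in which they were open, for sites near all protein-coding genes, near the 43 collagen genes and in each collagen class; n is the number of sites. Sites open at D0 only in both genotypes took 37.4% of type VI and 35.5% of FACIT sites against 23.3% near all genes, and sites open at D8 only took 9.62% of multiplexin and 7.32% of type IV sites against 6.13%.

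The collagen classes were then described separately, with no test of a difference between them. Type VI sites were D0 only in both cultures in 37.4% (28.1 to 47.6) of 91 cases, FACIT sites in 35.5% (27.6 to 44.2) of 124 and fibrillar sites in 29.4% (23.6 to 36.0) of 204. Short-chain network sites (types VIII and X) were D0 only in 31.6% of 38 cases. The multiplexins, with 13 of 52 (15.2% to 38.2%), the transmembrane collagens, with 22.7% of 44, and type IV, with 22.0% (14.4 to 32.1) of 82, were close to the 23.3% of all genes. Col7a1 and Col28a1, each a class of its own here, had 21.4% of 14 and 29.4% of 17. D8-only sites were 9.62% (4.18 to 20.6) in the multiplexins, 7.32% (3.40 to 15.1) in type IV, 5.49% in type VI, 2.94% in the fibrillar class and 1.61% in the FACIT class, against 6.13% near all genes, which the multiplexin and type IV intervals included. None of the transmembrane, short-chain network and Col28a1 sites was D8 only in both, where intervals reached 8.03%, 9.18% and 18.4%. The intervals of the classes overlap widely, and the counts of D8-only sites are small.

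Gene by gene, 37 of the 43 collagen genes (86.0%) had more D0-only than D8-only sites, against 64.8% of the 19489 genes with a site. None had more D8-only sites, against 10.5%, and 6 had equal numbers. The collagen genes are long and had a median of 14 sites against 9 for all genes, and the part of site number in this result was not tested. Col14a1, which encodes a FACIT collagen bound to fibrils, had 21 D0-only sites among 39, the sixth highest number of any gene, and 1 D8-only site. Col24a1 had 12 among 28 and Col6a6, a type VI chain, 11 among 19, with no D8-only site at either. Col15a1 was the most balanced of the genes with many sites, with 5 of each among 28, and Col4a2 had 9 D0-only and 5 D8-only sites among 47.

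Fewer collagen genes had an open promoter at D8 than at D0. A summit lay from 1000 bp upstream to 100 bp downstream of a TSS in 23 of 43 genes in WT D0 and 17 in WT D8, and in 24 and 21 genes in HY. For all genes these shares were 53.4%, 49.5%, 54.3% and 50.4%, and for collagens 53.5%, 39.5%, 55.8% and 48.8%. With all lists shortened to equal length the numbers were 20 and 17 genes in WT and 22 and 21 in HY. A promoter was open in all 4 libraries in 17 of the 43 genes and in none in 16, against 10023 and 9259 of all 22367 genes. Of 21 collagen promoters open at D0 in both cultures, 3 were closed at D8 in both (Col24a1, Col6a4 and Col7a1), against 6.04% of all such promoters. Of these 3, only Col6a4 had a D0 peak within 1000 bp of its outermost TSS in both cultures. No collagen gene went from no open promoter at D0 to one at D8 in both cultures, against 0.943% of all genes, although single internal promoters of Col6a3 and Col4a2, described further on, did open. By another measure, a peak within 1000 bp of the outermost TSS, 15 genes were open in all 4 libraries, 34.9% against 48.3% of all genes, and 14 in none. Of 20 genes open there at D0 in both cultures, Col3a1 and Col6a4 were closed at D8 in both, against 6.14%, and none was open at D8 only in both, against 0.563%. Of the 15 genes, 11 had a lower scaled pileup at D8 in both cultures, 73.3% against 35.7%, and 3 were at least 2-fold lower in both, against 2.13%. These were Col1a2, Col5a3 and Col1a1, but for Col1a1 the D0 and D8 peaks compared have their summits at different sites, and at the site with a peak on both days the ratios were 0.52 in WT and 0.467 in HY.

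Type I collagen, the main fibrillar collagen, is encoded by Col1a1 (ENSMUSG00000001506) on chromosome 11 and Col1a2 (ENSMUSG00000029661) on chromosome 6. The site at the Col1a1 5′ end, with summits 102 and 134 bp after the TSS in WT and HY, had D0 pileups of 47 and 51 and no peak at D8 in either culture. A separate site 1.02 kb into the gene, in the promoter window of another annotated TSS, had pileups of 43 (D0) and 18 (D8) in WT and of 46 and 15 in HY, so the Col1a1 promoter still counts as open at D8. Upstream, the -2.48 kb site whose sequence is printed above had pileups of 70 (54.6 to 88.4) in WT D0 and 71 (55.5 to 89.6) in HY D0, the highest of all D0-only collagen sites, and no peak at D8. Farther upstream the locus kept open sites, and that at -22.8 kb had 32, 28, 28 and 25 in WT D0, WT D8, HY D0 and HY D8.

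At Col1a2 the promoter site, 762 bp after the outermost TSS in WT D0, had a pileup of 64 at D0 and 8 at D8 in WT, and 58 and 15 in HY. Scaled for depth, D8 was 0.155 of D0 in WT (counting interval 0.064 to 0.324) and 0.370 in HY (0.195 to 0.662). The cluster of sites between -16.2 and -14.7 kb lies in the region where a far-upstream enhancer active in fibroblasts is known. Its middle site at -15.3 kb, printed above, had 47 and 51 at D0 and no peak at D8, and the site at -14.7 kb had 31 and 28 and likewise none. The outer site at -16.2 kb was kept, with 41, 13, 44 and 9 in WT D0, WT D8, HY D0 and HY D8.

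Col3a1, the chain of type III collagen that co-assembles with type I, had a promoter site with pileups of 24 in WT D0 and 32 in HY D0 and no peak at D8. The WT summit lay 121 bp after the TSS and so just outside the promoter window, and only HY D0 was counted there. A site in the same gene at 2.65 kb showed the opposite order, with no peak at D0 and pileups of 13 and 15 at D8. Of the 13 Col3a1 sites, 8 were D0 only in both cultures.

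Type V collagen, which nucleates type I fibrils, kept its promoters. Col5a1 had 61, 24, 67 and 27 in WT D0, WT D8, HY D0 and HY D8, with D8 to D0 ratios of 0.488 (0.291 to 0.795) and 0.577 (0.355 to 0.915) for the WT and HY cultures. Col5a3 was lower at D8 too, with 34, 13, 40 and 10. Col5a2 changed little, with 33, 22, 35 and 22 and ratios of 0.827 (0.460 to 1.46) and 0.900 (0.503 to 1.58). Of the other fibrillar genes, Col24a1 had a promoter pileup of 18 and 13 at D0 and none at D8, and Col27a1 had 25, 15, 29 and 16. At both genes these peaks lay at a TSS other than the outermost. Col11a1 and Col2a1 had weak promoter peaks that the cultures did not share, and Col11a2 had none in the window but a peak within 1000 bp of its outermost TSS in all 4 libraries, with 12, 14, 16 and 13.

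**Figure D2:**
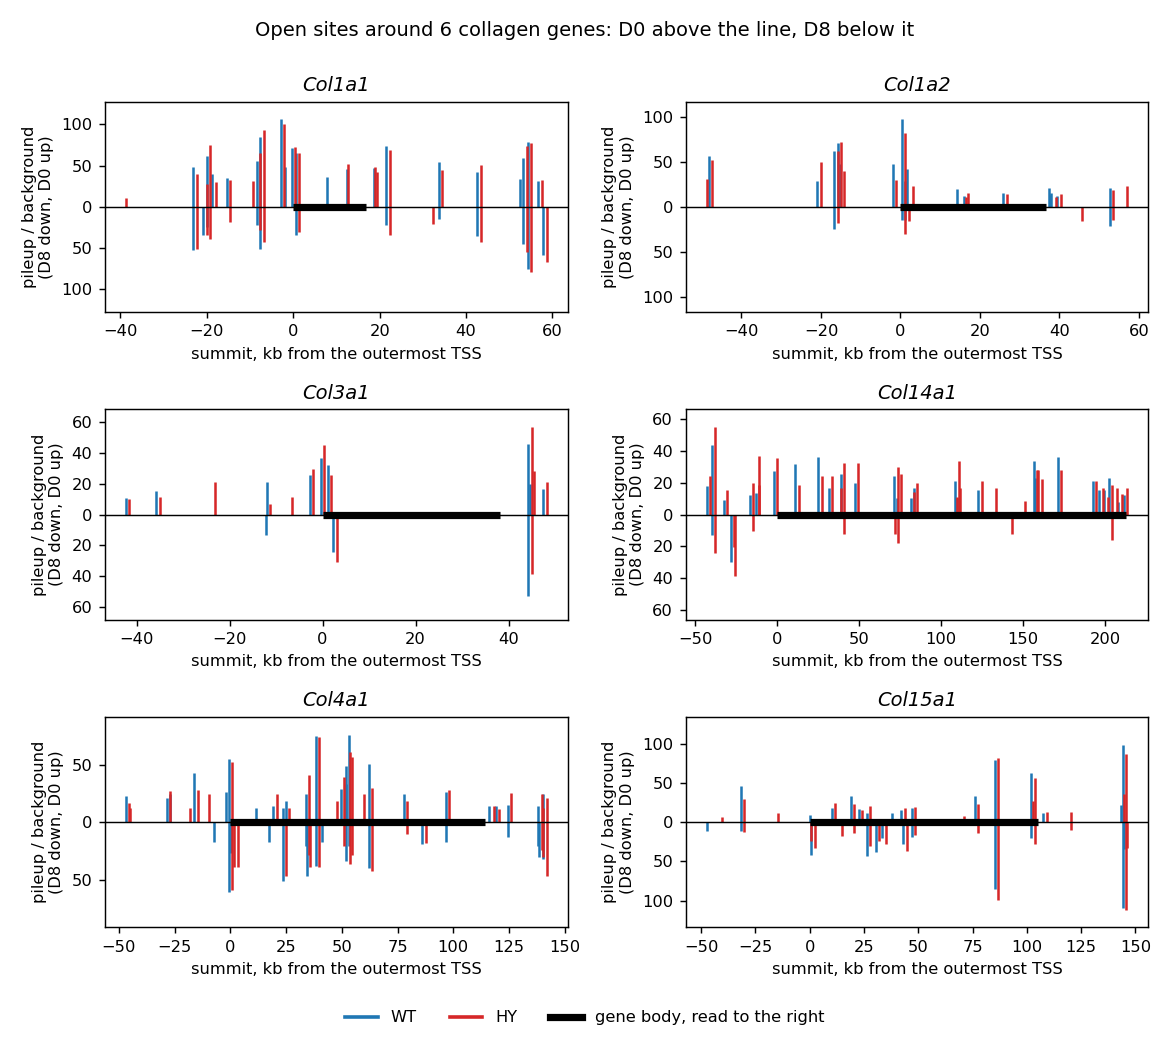
Summit pileup divided by the library's background rate (no unit) at every open site around 6 collagen genes, by distance from the outermost TSS in kb, with D0 drawn upward, D8 downward, WT in blue and HY in red; the black bar is the gene body. Col1a2 and Col14a1 hold mostly upward lines, while Col4a1 and Col15a1 hold sites in both directions.

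Among the FACIT genes, Col12a1 and Col16a1, both of which encode collagens found on fibril surfaces, had open promoters in all 4 libraries. Col12a1 had 53, 20, 51 and 25 in WT D0, WT D8, HY D0 and HY D8, and Col16a1 had 46, 22, 56 and 23. All 4 of these D8 to D0 ratios were under 1, from 0.468 in WT Col12a1 to 0.702 in HY Col12a1, and the intervals of HY Col12a1 (0.417 to 1.15) and WT Col16a1 (0.340 to 1.01) included 1. Col14a1 had no summit in its promoter window. Its 21 D0-only sites were spread over the gene and the region before it and were of modest height, with the upstream site at -1.23 kb at 18 and 25. Its lone D8-only site, at -27.0 kb, had 16 and 19. Col22a1 had a weak promoter peak in the HY libraries only, with 13 and 8. The remaining FACIT genes, Col9a1, Col9a2, Col9a3, Col19a1 and Col20a1, had no promoter summit, and type IX collagen is typical of cartilage. A site in the Col19a1 window with pileups of 172, 176, 169 and 176 is a stretch of nuclear DNA of which 98.8% of 31-base words also occur in the mitochondrial genome, so its reads may belong to mitochondrial DNA.

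Type VI collagen, which has a prominent place in adipose tissue matrix, kept the promoters of Col6a1 and Col6a2, while the main chain Col6a3 lost its 5′ peak in WT. Col6a1 had 31, 15, 34 and 20 in WT D0, WT D8, HY D0 and HY D8, and Col6a2 had 56, 32, 67 and 37. The Col6a3 5′ end had 38 in WT D0 and 43 in HY D0, no peak in WT D8 and 11 in HY D8. An internal Col6a3 promoter, 64.6 kb into the gene, showed the reverse with no peak at D0 and 21 and 16 at D8. Col6a4, with 13 and 24 at D0 and none at D8, and Col6a5, with 20, 14, 33 and 9, are homologues of Col6a3. The strongest D0-only type VI site was intergenic at -27.6 kb of Col6a2, with 50 and 43. Closer to the gene, at -25.3 kb, a site was higher in scaled signal at D8, with 33, 45, 38 and 51 and ratios of 1.69 and 1.92.

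Among the strong promoters, that of the main type IV chains differed little between the days. Col4a1 (ENSMUSG00000031502) and Col4a2 (ENSMUSG00000031503), whose products form the common basement membrane heterotrimer, share a bidirectional promoter on chromosome 8. It had a pileup of 36 before and 32 after differentiation in WT, and 37 and 29 in HY, and the scaled D8 to D0 ratios were 1.10 (0.663 to 1.83) and 1.12 (0.666 to 1.88). Around it sites were lost and gained. An intronic Col4a2 site 74.7 kb from the TSS had 35 and 40 at D0 and no peak at D8, and an intronic Col4a1 site at 35.0 kb had none at D0 and 25 and 19 at D8. An internal Col4a2 promoter, 91.2 kb into the gene, likewise opened with 20 and 15. Col4a5, a chain of specialized basement membranes, had 14, 7, 21 and 11, and Col4a3, Col4a4 and Col4a6 had no promoter peak.

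**Figure D3:**
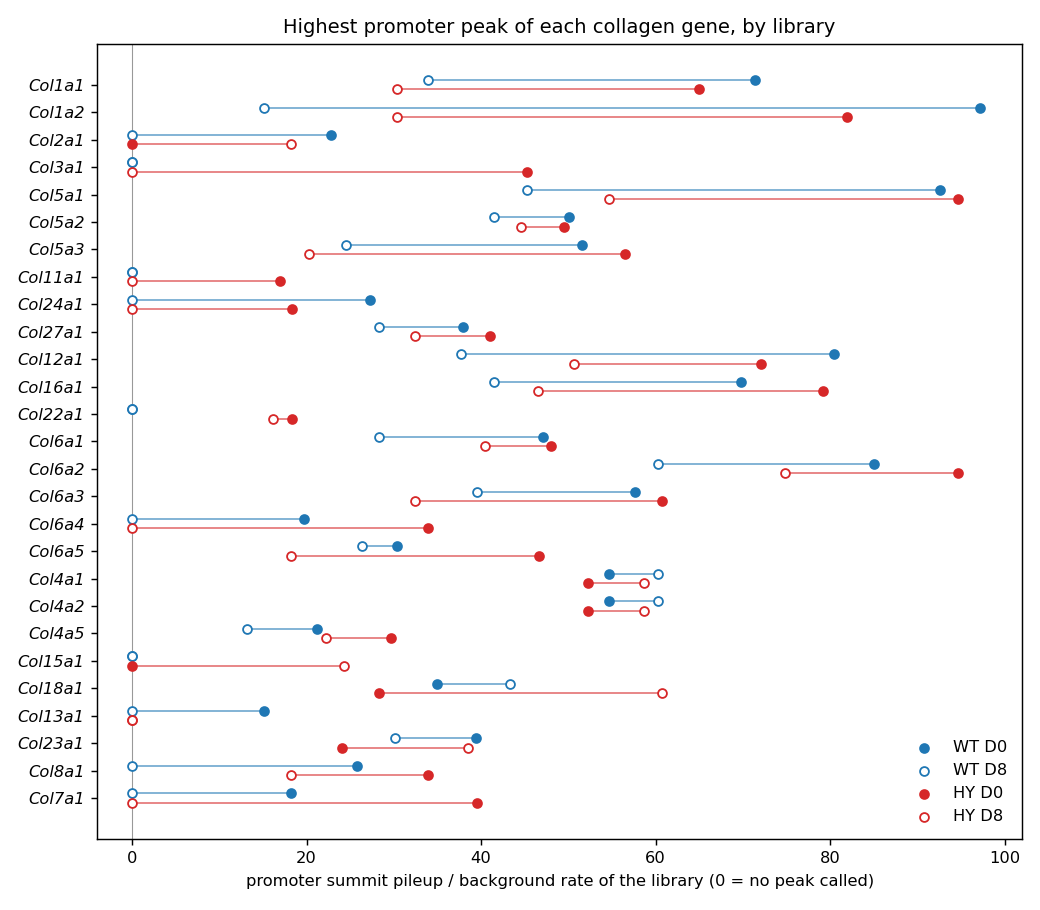
Highest promoter summit pileup of each collagen gene divided by the library's background rate (no unit; 0 where no peak was called), for the genes with a promoter summit in any library, with filled points for D0 and open points for D8, WT in blue and HY in red. Open points lie left of filled ones for most fibrillar, FACIT and type VI genes. They lie to the right in both cultures for Col4a1, Col4a2 and Col18a1. The Col18a1 points in HY come from different promoters (pileups of 20 at D0 and 30 at D8), and its outermost promoter was lower at D8. Col3a1 in WT D0 had a peak just outside the window.

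The multiplexin genes lost more sites than they gained, and the same order held near all genes. Of their 52 sites, 13 were D0 only (15.2% to 38.2%, against 23.3% near all genes). D8-only sites numbered 5, 9.62% (4.18 to 20.6) against 6.13%, and both intervals included the value for all genes. In WT, 16 multiplexin sites were open on both days. At D8, 6 of them were at least 2-fold lower and 2 at least 2-fold higher (37.5% and 12.5%, against 13.4% and 4.39%). In HY these were 3 and 2 of 19 (15.8% and 10.5%, against 15.5% and 5.04%). None of the D8-only sites was at Col18a1, which had 8 D0-only sites, and 1 of those assigned to Col15a1 was at the promoter of its neighbour Tgfbr1. In Col18a1, whose C-terminal fragment is endostatin, an intronic site 38.4 kb from the outermost TSS, printed above, had 16 at D0 and 49 at D8 in WT, and 17 and 46 in HY, ratios of 3.80 and 3.87. It was the largest gain among collagen sites open in all 4 libraries when ranked by the culture with the lesser gain. An internal Col18a1 promoter, 52.5 kb into the gene, had 23 in both WT libraries and 13 and 30 in HY, another had 18 in both WT libraries and 20 and 17 in HY, and the outermost promoter had 10 and 15 at D0, no peak in WT D8 and 5 in HY D8. In Col15a1 the promoter had a peak in HY D8 only, with a pileup of 12. The intronic site 1.59 kb after the TSS had none at D0 and 22 and 16 at D8, and 3 other D8-only sites lay in its introns, at 31.1, 34.2 and 43.9 kb.

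None of the transmembrane and short-chain network sites was D8 only in both cultures. The intervals reached 8.03% and 9.18% and so included the 6.13% near all genes. Col23a1, a transmembrane collagen, had promoter pileups of 26, 16, 17 and 19 in WT D0, WT D8, HY D0 and HY D8, a ratio of 0.764 in WT and 1.60 in HY, and both counting intervals (0.383 to 1.48 and 0.788 to 3.28) included 1. Its introns held 6 D0-only sites and no D8-only site. Col8a1, which encodes a short-chain collagen of vessel walls, had 17 in WT D0, 24 in HY D0, 9 in HY D8 and no peak in WT D8, and 9 of its 21 sites were D0 only. Col7a1, the anchoring fibril collagen of skin, had 12 and 28 at D0 and none at D8. The WT peak lay at a TSS other than the outermost, where only HY D0 had a peak. A D8-only site in the Col7a1 window lay in an exon of the neighbouring gene Pfkfb4, with 39 in both cultures. Promoter peaks were absent from Col10a1, Col8a2, Col17a1, Col25a1 and Col28a1, and Col13a1 had a single one, in WT D0, with a pileup of 10.

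Sites that stayed open had a lower scaled pileup at D8. At the 157 collagen sites open on both days in WT the median log2 ratio of D8 to D0 was -0.37 against -0.14 for all genes, and at the 200 such sites in HY it was -0.39 against -0.15. Centred on the median of all sites, both were -0.21. In the deposited fold enrichment there was no such excess, with medians of -0.14 in WT and -0.22 in HY against -0.16 and -0.23 for all sites. A drop of at least 2-fold was seen at 34 sites in WT (21.7% against 13.4%) and at 52 of 200 in HY (15.5% of all sites). A gain of that size was seen at 9 (5.73% against 4.39%) and 12 (6.00% against 5.04%). Of the 143 sites open in all 4 libraries, 19 fell at least 2-fold in both cultures and 4 gained as much in both, where all genes gave 7.25% and 2.45%, and none moved 2-fold in opposite directions. The deepest drops apart from the Col1a2 promoter included an intron of Col6a6 (38, 6, 40 and 8 in WT D0, WT D8, HY D0 and HY D8) and a region 93.6 kb from the Col6a3 TSS, beyond the end of that gene (48, 10, 56 and 12). Besides Col18a1, the gains included a site 26.1 kb from the Col6a1 TSS (10, 31, 16 and 31) and an intron of Col12a1 (14, 22, 12 and 23). By class, the WT and HY medians were -0.52 and -0.44 for fibrillar, -0.59 and -0.75 for type VI, -0.40 and -0.51 for FACIT, -0.29 and -0.19 for type IV and -0.17 and -0.33 for multiplexin sites. Short-chain network sites had -0.49 and -0.32, and transmembrane sites lay on the other side of 0, with 0.04 over 12 sites in WT and 0.03 over 16 in HY.

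**Figure D4:**
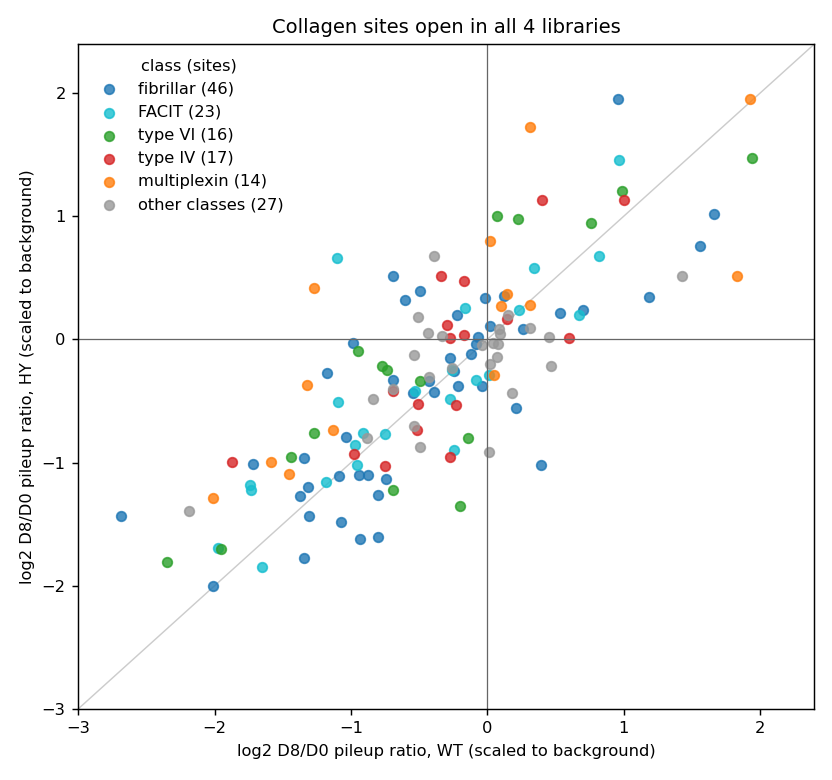
Log2 ratio of D8 to D0 summit pileup, scaled to background, in WT (horizontal) and HY (vertical) at the 143 collagen sites open in all 4 libraries, coloured by class. More points lie in the lower left than in any other corner, and the site with the highest lesser gain, to the upper right, is the intronic Col18a1 site.

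The cultures differed less from each other than the days did. Of the WT D0 collagen sites, 85.6% (82.1 to 88.5) were open in HY D0, against 85.2% for all genes, and of the WT D8 sites 83.4% (77.8 to 87.8) were open in HY D8, against 87.4%. In the other direction, 75.5% of HY D0 and 69.6% of HY D8 sites were open in WT, against 76.6% and 72.6%, and the HY lists were the longer at each day. Where both cultures had a peak, the median log2 ratio of HY to WT was 0.09 at D0 and 0.17 at D8, against 0.08 and 0.15. A 2-fold higher level in HY was seen at 10 of 398 shared sites at D0 (1.97% of all sites) and 4 of 176 at D8 (1.62%), and a 2-fold lower level at 10 (1.24%) and 0 (0.472%). Sites open in a single library numbered 61 in WT D0 (9.16% against 8.71%), 118 in HY D0 (17.7% against 15.7%), 24 in WT D8 (3.60% against 2.30%) and 23 in HY D8 (3.45% against 4.94%). Sites open in HY on both days and in WT on neither numbered 6 (0.901% against 0.929%), the strongest being the Col22a1 promoter with 13 and 8, and the only WT counterpart (0.150% against 0.301%) was a weak site at -20.9 kb of Col2a1 with 7 on both days. Sites open at D0 in both and at D8 in HY only numbered 46, 6.91% against 6.66%. The counterpart open at D8 in WT only numbered 10 of 666, against 2.01%. The HY-only group included the site at -45.4 kb of Col6a2, with 61 in WT D0, 75 in HY D0, 19 in HY D8 and no peak in WT D8.

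Other genes of the collagen pathway were taken from 6 lists with 51 genes, covering hydroxylation and glycosylation, folding and export, procollagen processing, crosslinking, receptors and fibril-associated proteoglycans. Promoters were open in 39 of 51 in each D0 library, 33 in WT D8 and 34 in HY D8. Of 35 open at D0 in both cultures, 6 were closed at D8 in both (17.1% against 6.04%). These were Aspn, Dcn and Fmod, small leucine-rich proteoglycans that bind fibrils, the collagen-binding integrin subunit Itga10, the procollagen protease Tll1 and the galactosyltransferase gene Glt25d2, which in HY D8 still had a peak (pileup 6) within 1000 bp of its outermost TSS. Of the 7 proteoglycan genes, 4 had an open promoter in WT D0, 5 in HY D0 and 1 at D8 in each, where the shares for all genes were 53.4%, 54.3%, 49.5% and 50.4%. Counting all sites near the genes, the D0 sites of this list closed in 72.7% (59.8 to 82.7) of 55 cases in WT and 71.4% (58.5 to 81.6) of 56 in HY, against 56.9% and 54.1%. The other 5 lists lay near or below those values, at 51.1% and 42.6% for hydroxylation and glycosylation, 51.1% and 43.1% for folding and export, 51.8% and 54.0% for crosslinking, 58.9% and 54.0% for processing and 61.5% and 53.5% for receptors. All 6 crosslinking genes, with the lysyl oxidase Lox among them, were open in all 4 libraries. So were 10 of the 14 genes of hydroxylation and glycosylation, against 10023 of all 22367 genes. By library, 12, 11, 11 and 11 of these 14 were open in WT D0, WT D8, HY D0 and HY D8. Pileups in WT D0, WT D8, HY D0 and HY D8 were 45, 22, 50 and 31 for Lox, 62, 28, 71 and 32 for Serpinh1, the collagen chaperone, and 51, 13, 70 and 15 for Mrc2, an endocytic collagen receptor. P4hb, the beta subunit of prolyl 4-hydroxylase, had 81, 76, 88 and 75. Dcn had 9 and 20 at D0 and none at D8. The only promoter to open at D8 in both was that of Sec24d, a coat protein of procollagen export, and a peak within 1000 bp of its outermost TSS was present in all 4 libraries (34, 19, 48 and 21), so its call turned on where the summit fell.

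Motifs were searched on both strands within 100 bases of the summit of distal sites, as the letters TGANTCA for AP-1, GGAATG for TEAD, TGTGGT for RUNX, TTGGCA for NFI (a single arm of its palindrome), CCCNNGGG for EBF, ACANNNTGT for the glucocorticoid receptor and TTNCGNAA for C/EBP, where matches may overlap. AP-1 letters were present at 36.6% (30.1 to 43.7) of 191 D0-only collagen sites, 30.9% of 97 sites open in all 4 libraries and 1 of 21 D8-only sites (4.76%, 0.846 to 22.7). For all genes these shares were 31.7%, 23.6% and 7.36%. NFI sites had the opposite order, at 14.1% (9.90 to 19.8), 24.7% and 33.3% (17.2 to 54.6), against 15.1%, 16.6% and 27.8%. TEAD letters were at 25.7%, 25.8% and 14.3%, against 22.0%, 16.8% and 12.5%. RUNX letters were at 25.1%, 20.6% and 9.52%, against 23.4%, 16.6% and 13.7%, and EBF letters at 6.81%, 13.4% and 19.0%, against 8.00%, 11.9% and 13.1%. The glucocorticoid receptor letters were at 5.24%, 3.09% and 19.0%, against 6.98%, 6.01% and 8.28%, and those of C/EBP at 0.524%, 1.03% and 0%, against 0.960%, 1.84% and 2.53%. A match is a description of the letters and not a bound factor.

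**Figure D5:**
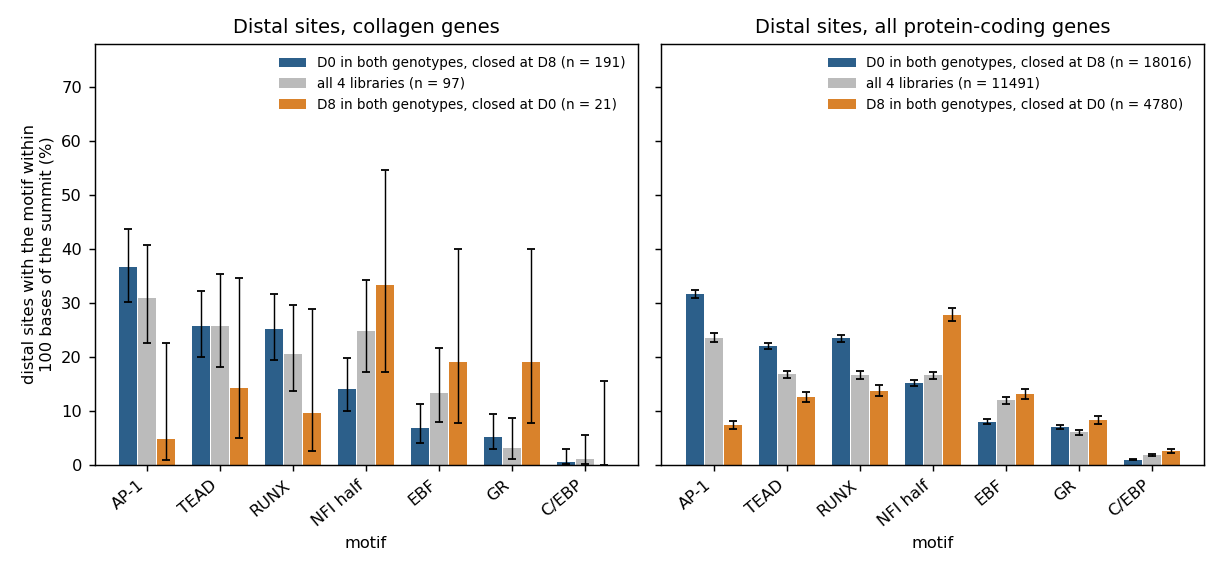
Share (%) of distal sites with a motif within 100 bases of the summit, for sites near collagen genes (left) and near all protein-coding genes (right), by the libraries in which they were open; bars show the share and lines the 95% Wilson interval. AP-1 bars fall from D0-only to D8-only sites and NFI bars rise in both panels, with wide intervals for the 21 collagen sites open at D8 only.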

How the data were processed

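ATAC-seq peaks of the 4 libraries were analysed as deposited, 1 list per library. Per the labels, the authors used Bowtie2, SAMtools, Picard and deepTools on mm9. Their methods name Trimmomatic for the procedure followed, with HOMER for JMJD1A peaks and MACS3 for transcription factor peaks. They do not state which caller served the ATAC-seq peaks. Versions, the calling threshold and any Tn5 shift are not given in the sources used here. The deposited lists hold a fold enrichment (ratio), -log10 p and q values and a score at each summit, and the score was not used. The summit pileup and local background were solved from the fold and the -log10 p, with whole-number solutions for 100% of peaks within 0.002. Tested on 3000 simulated peaks, the solution recovered the pileup in 100%.

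Peaks sharing at least 1 bp were merged into sites. Ratios were divided by the lowest local background of each library, taken as its relative depth. Libraries had median pileups of 13 to 15. PCR reads are not independent molecules, so all intervals (95%) cover counting error only. Ratio intervals are exact binomial.

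With 1 library per group no test was run, and a change was counted at 2-fold. The collagen genes and lists were chosen with earlier results of these data known. Named were promoters of the main types, in each class the 3 strongest sites of each single day, the 10 largest changes in each direction among sites open in all libraries with a pileup of at least 20, sites open in 1 culture only and listed genes whose promoter differed between days. From these the text gives examples, and other sites at the same loci were named after their values were seen. Alternatives were overlap, list length, peak strength, window, gene assignment, scaling and measure. Python 3.11.15, pandas 2.3.3, NumPy 2.4.6, SciPy 1.17.1 and matplotlib 3.10.9 were used.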

Additional observations from a re-analysis of the deposited data

Results flagged for a closer look

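Median differences between the HY and WT cultures lay on opposite sides of 0 at the 2 days in type IV sites, with a median log2 ratio of HY to WT of -0.0067 at D0 and 0.23 at D8. The same held at Col28a1 sites, with -0.10 over 7 sites at D0 and 0.10 at 1 site at D8. Col28a1 also differed in sign between the cultures for D8 against D0, with a median log2 ratio of -1.04 over 2 sites in WT and 0.046 at 1 site in HY. None of these differences was tested, since each rests on 1 library per group.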

How the results depend on the processing

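Of 72 alternative values, 32 shares stayed within the interval of the main value and 16 counts of promoters within 1.5 times of it. The 8 alternative medians kept their sign and moved by less than the SD over sites, a wide measure with no replicate behind it, and the HY to WT median at D8 went from 0.17 to 0.02 when centred and 0.06 in the fold enrichment. Set against all genes, several orders turned, mostly in the shares between cultures. For WT D0 sites open in HY (main 85.6% against 85.2%) they turned with 50% coverage, equal lists and a 10 kb window (82.5% against 85.7%). For HY D8 sites open in WT (main 69.6% against 72.6%) they turned with 50% coverage (63.8% against 62.0%) and distal sites (65.1% against 64.1%), as did HY D0 sites open in WT for distal sites (73.6% against 72.3%, main 75.5% against 76.6%). For WT D8 sites open in HY they turned at a -log10 q of at least 5 (87.6% against 86.1%, main 83.4% against 87.4%). The share opened in WT (main 25.6% against 24.6%) was at or below that of all genes with 50% coverage (26.6% in each) and distal sites (30.8% against 35.0%). In the deposited fold enrichment the D8 to D0 medians were -0.14 against -0.16 in WT and -0.22 against -0.23 in HY (main -0.37 against -0.16 and -0.39 against -0.18). With coverage of 50% of a peak in place of 1 shared bp, the closed share was 76.3% in WT and 75.8% in HY (71.6% and 70.3% near all genes), and 80.0% of WT D0 peaks were found in HY and 65.7% of HY D0 peaks in WT (80.3% and 66.7%). With lists of equal length, 52.0% of WT and 48.7% of HY D0 sites were closed (38.7% and 36.9%), 36.8% and 33.2% of D8 sites were new (36.1% and 35.2%), 79.2% of D0 sites were shared in each direction (84.2% and 82.8%) and 78.5% of HY D8 sites were open in WT (79.9%). A window of 10 kb gave closed shares of 71.7% and 66.4% (54.1% and 51.9%), and assignment by nearest TSS or gene body gave 72.2% and 65.8%, with no share for all genes computed. Distal sites alone gave 72.6% and 68.0% (68.6% and 64.3%). The cause of these shifts was not tested. The distal sites, the measure at the outermost TSS and the division by D0 strength were chosen after seeing the data. The days were compared within each culture, but no paired test was run, and with 1 library per group no replicate could be left out. Peaks below the calling threshold are unseen, so a closed site may hold weak signal, more so in the shallower D8 libraries.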
